A study of Mus musculus with 3 samples.

Results

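Antibody-secreting cells were searched for among single splenic B cells by a fixed rule on their RNA. The members were chosen by their RNA counts alone: a barcode counted when it held at least 10 unique molecular identifiers (UMIs, each a counted RNA molecule) of *Jchain* and a UMI of at least 5 of 12 plasma cell markers, *Sdc1*, *Xbp1*, *Prdm1*, *Irf4*, *Mzb1*, *Tnfrsf17*, *Derl3*, *Txndc5*, *Creld2*, *Edem1*, *Fkbp11* and *Sec11c*. All barcodes with at least 800 detected genes and at most 8% mitochondrial UMIs were searched, with no upper limit on genes or UMIs. The rule found 255 members among 23212 barcodes, of which 53 came from the WT library, 132 from 3′RR-*BCL2* and 70 from Igκ-*BCL2*. Most of them did not look like plasma cells. Only 41 of the 255 gave 5% or more of their UMIs to immunoglobulin genes. Summed per library, these 41 held secretory genes at high levels, though single cells varied widely. Germinal center (GC) genes were found in nearly all of the other 214. The members are therefore called Ig-rich and Ig-poor below, a division at 5% that was chosen after the values were seen.

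The study set mice with deregulated human *BCL2*, an inhibitor of apoptosis, against wild-type mice, and prepared 1 library for each genotype with a 10x 3′ kit. All mice were immunized once with sheep red blood cells and gave their spleens on day 10. The study states a mixed B6/129 background for both *BCL2* models. Its methods name no injection route for these single-cell mice and no separate background for WT. WT mice carried no *BCL2* cassette. The 3′RR-*BCL2* mice carried a randomly integrated human *BCL2* cassette with its own P1/P2 promoters, placed under the core 3′ regulatory region (3′RR) of the heavy chain locus. In Igκ-*BCL2* mice the same cassette replaced the Jκ segments of the kappa locus, just before the Eκ enhancer, so a targeted allele cannot form a kappa V-J joint; the study describes its mice in general as hemizygous, and zygosity for this library is not given separately in the sources used here. The methods describe magnetic B cell isolation by negative selection for all 3 sets, whereas the labels call WT sorted B cells and both *BCL2* libraries whole tissue cells. Age and the number of mice per library are not given in the sources used here. With 1 library per genotype there was no replicate check: differences between genotypes could not be separated from differences between animals or libraries, no p-value is given, and every interval covers counting error only, at 95%.

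The libraries held 11269, 7579 and 7034 barcodes (WT, 3′RR-*BCL2* and Igκ-*BCL2*, the order kept throughout) and 62777659, 45539172 and 37433924 UMIs. Of these barcodes 10102, 6744 and 6366 were searched, with a median of 5049, 5338 and 4846 UMIs. Between 15 and 24 barcode sequences recurred between any pair of libraries. No barcode was a member in both libraries of a pair. *Xist*, transcribed from the silenced X, stood at 0, 1283 and 0 UMIs per 1000000 in members, and the Y-linked *Ddx3y* at 85.9, 0 and 119, so sex cannot be told apart from genotype wherever 3′RR-*BCL2* is compared, while WT and Igκ-*BCL2* showed the same pattern. Human *BCL2* was not among the 32285 features, and whether cassette reads were counted as mouse *Bcl2* was not tested.

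A B cell that becomes a plasma cell turns off its B cell program and turns its endoplasmic reticulum (ER) over to antibody. Blimp-1 (*Prdm1*) and IRF4 drive this switch and repress PAX5, BACH2 and BCL6, the factors that hold B cell and GC identity. XBP1 expands the ER and its folding machinery, and the J chain encoded by *Jchain* links IgM and IgA into polymers. Plasmablasts still divide, whereas mature plasma cells have left the cell cycle and display syndecan-1 (*Sdc1*) and BCMA (*Tnfrsf17*), the receptor for the survival factors APRIL and BAFF.

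The Ig-rich members were 7, 12 and 22 cells. Their immunoglobulin share had a median of 35.6, 29.1 and 33.9%, with ranges of 12.2 to 53.5, 6.51 to 59.6 and 6.06 to 68.1%. In the Ig-poor members the medians were 0.907, 1.21 and 1.30%, below the 1.52 to 1.58% of barcodes that were not members. The highest Ig-poor cell reached 2.06, 4.70 and 3.78%, so a gap separated both kinds in WT while in 3′RR-*BCL2* and Igκ-*BCL2* they lay closer together. *Jchain* UMIs per cell, which the rule used, had medians of 809, 552 and 1070 in Ig-rich members and 23, 18 and 15 in Ig-poor members. All 12 markers were found in 2, 1 and 4 cells, each of them Ig-rich.

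**Figure D1:**
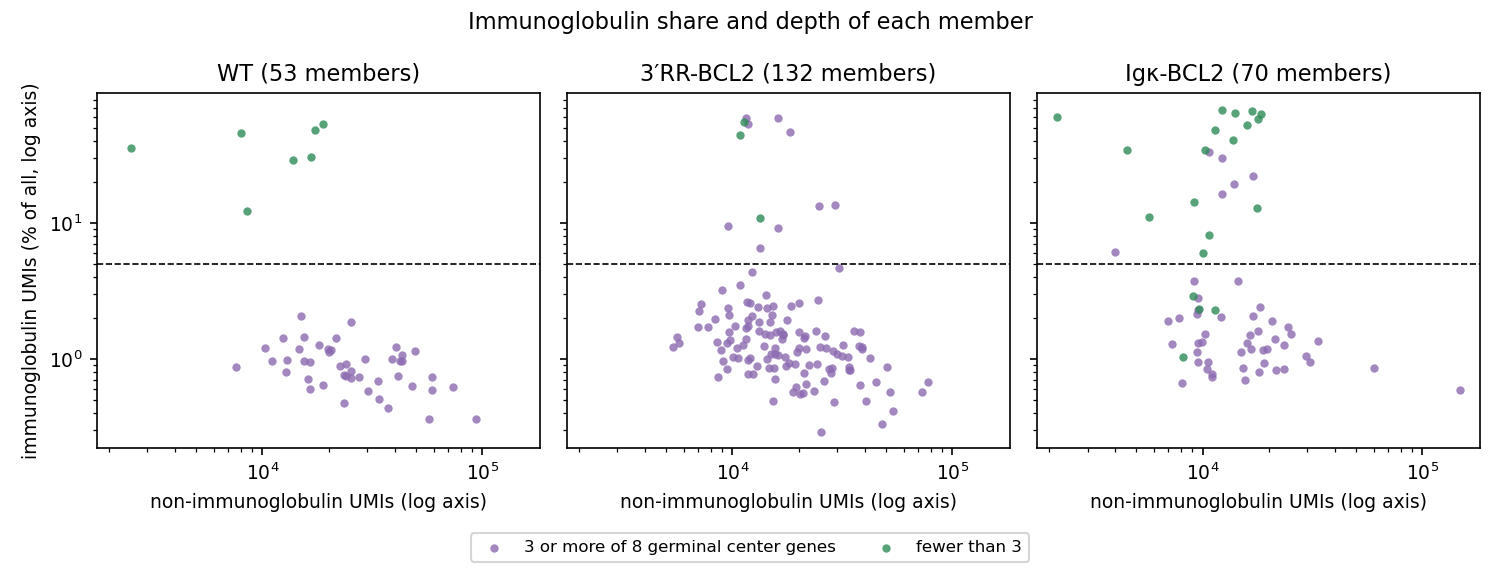
Every member by library, with its immunoglobulin share of UMIs in percent against its non-immunoglobulin UMIs, both on log axes. Colour marks a UMI of 3 or more of 8 germinal center genes, and the dashed line is the 5% division: the 41 Ig-rich cells lie above it, and GC genes mark 46 of 46, 120 of 120 and 44 of 48 cells under it.

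A UMI of 3 or more of 8 GC genes (*Bcl6*, *Mef2b* and *S1pr2* among them) was found in 46 of 46, 120 of 120 and 44 of 48 Ig-poor members. Among Ig-rich members it was found in 0 of 7, 9 of 12 and 6 of 22. The Ig-poor members were also large, with a median of 24150, 16832 and 15302 UMIs against 10220, 7418 and 7569 in GC-gene barcodes that were not members. Ig-rich members had medians of 19264, 25022 and 17397 UMIs, although they detected fewer genes (3306, 3166 and 2994 against 4934, 4028 and 3570). Depth thus moved with membership, and its part in the selection was not tested. Members with over 20000 UMIs numbered 34, 55 and 22. By the study's own limits (at most 4500 genes and 20000 UMIs, at least 10% ribosomal UMIs) 36, 55 and 24 members would have been removed, 3, 7 and 11 of them Ig-rich. Barcodes over 20000 UMIs that were not members numbered 69, 75 and 32, held a median of 6 of the 12 markers in each library, and had a median *Jchain* count of 0, 1 and 0.

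Many members stood close to the limits of the rule. *Jchain* stood at 10 to 12 UMIs in 10, 32 and 16 members, and another 7, 40 and 11 barcodes with enough markers fell just short at 7 to 9 UMIs. Exactly 5 markers were found in 10, 53 and 23 members, and 5, 40 and 17 barcodes with enough *Jchain* had exactly 4.

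*Jchain* (chr5:88519809-88527891, minus strand, mm10) and the 12 markers of the rule were concentrated in the Ig-rich cells. Levels are given in CPM, UMIs per 1000000 non-immunoglobulin UMIs of the summed cells, so that antibody RNA does not dilute the rest. *Sdc1*, the surface proteoglycan CD138, stood at 140, 108 and 314 CPM in Ig-rich members against 0, 1.21 and 3.29 in Ig-poor members. It was seen in 6 of 7, 8 of 12 and 15 of 22 Ig-rich cells but in 0 of 46, 3 of 120 and 1 of 48 Ig-poor cells. *Tnfrsf17* gave no UMI in any Ig-poor member, which allows up to 2.69, 1.49 and 4.05 CPM, and stood at 210, 221 and 115 CPM in Ig-rich members, with 39 of 41 UMIs of 3′RR-*BCL2* in 1 cell. *Prdm1* showed the same pattern, at 129, 145 and 218 against 2.19, 12.5 and 25.3 CPM. *Xbp1* was less exclusive, at 1800, 1318 and 1280 against 91.3, 129 and 132 CPM. *Mzb1*, an ER protein of B and plasma cells, was found in both kinds, at 6184, 4483 and 4362 against 662, 863 and 873 CPM. *Irf4* stood at 199, 199 and 291 against 45.3, 58.0 and 93.4 CPM, yet the barcodes that were not members held it at 196, 176 and 244 CPM, close to the Ig-rich cells. *Fkbp11*, an ER prolyl isomerase, was at 526, 183 and 230 against 0.730, 0.403 and 3.29 CPM. Many Ig-rich cells of the *BCL2* libraries lacked it. In 3′RR-*BCL2* and Igκ-*BCL2* it was seen in 4 of 6 and 8 of 14 cells with 20% or more immunoglobulin. Below 20% it was seen in 1 of 6 and 2 of 8 Ig-rich cells. In 3′RR-*BCL2* 1 cell held 24 of the 32 UMIs found from 20%. The Ig-poor members therefore passed the rule on markers such as *Mzb1*, *Xbp1* and *Txndc5* with hardly any *Sdc1*, *Tnfrsf17* or *Fkbp11*.

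The secretory apparatus outside the rule was also higher in the Ig-rich cells. Genes with at least 20 UMIs in either summed group were compared, and those at least 2-fold apart were counted. In WT 46.4% of 6529 genes were at least 2-fold apart between Ig-rich and Ig-poor members, 13.4% higher and 32.9% lower in Ig-rich. In 3′RR-*BCL2* the share was 36.5% (10.7% higher, 25.8% lower) and in Igκ-*BCL2* 35.8% (8.01% higher, 27.8% lower). The median log2 ratio over all these genes was -0.38, -0.29 and -0.44. Against that, the ER chaperones and disulfide bond enzymes were at least 2-fold higher for 17 of 18, 15 of 18 and 15 of 17 genes, with medians of 1.97, 1.76 and 2.46 and none lower. *Hsp90b1*, the ER form of HSP90, stood at 5401, 2874 and 5949 CPM in Ig-rich members and 307, 340 and 237 in Ig-poor members. Its level in single Ig-rich cells had medians of 4590, 2029 and 3360 CPM and ranges of 1255 to 13772, 436 to 10150 and 595 to 19257. *Pdia4*, a disulfide isomerase, was at 1403, 958 and 1188 against 21.2, 50.4 and 39.5 CPM, and *Hspa5*, the main ER HSP70, at 2502, 2083 and 3987 against 628, 788 and 683. The division itself was made on immunoglobulin UMIs, so these values describe the cells and are no test.

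Motifs of the unfolded protein response were looked for in the promoters of these genes, since the secretory genes were higher together. RefSeq windows on GRCm38.p6, the mm10 build of the files, ran from 250 bases before to 50 after each start site, and both strands were searched for ERSE (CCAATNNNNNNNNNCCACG), ERSE-II (ATTGGNCCACG) and UPRE (TGACGTGG), which share the letters CCACG while none contains another whole. Any of these was found in 0.884% of 27025 genes with a window, ERSE alone in 0.137%. Of 14 chaperone genes with a window 7 held one, 6 of them ERSE. The share was 3 of 10 (30.0%) for the markers of the rule, 4 of 10 (40.0%) for ER-associated degradation, 0 of 13 for the translocon and 0 of 11 for B cell identity genes. The windows of 3 chaperones that held ERSE and of the marker *Derl3* (ER-associated degradation) are printed 5′ to 3′ on the gene's strand because they show how the ERSE letters lie, in capitals and in either orientation. *Hspa5* lies at chr2:34771840-34772139 (+), *Hsp90b1* at chr10:86705395-86705694 (-), *Pdia6* at chr12:17266339-17266638 (+) and *Derl3* at chr10:75893148-75893447 (+).
Hspa5: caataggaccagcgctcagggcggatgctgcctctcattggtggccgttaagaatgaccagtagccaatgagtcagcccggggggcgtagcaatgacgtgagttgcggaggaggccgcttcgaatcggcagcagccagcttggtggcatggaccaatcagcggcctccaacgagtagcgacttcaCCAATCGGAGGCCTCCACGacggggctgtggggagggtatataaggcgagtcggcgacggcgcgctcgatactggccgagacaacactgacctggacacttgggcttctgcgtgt
Hsp90b1: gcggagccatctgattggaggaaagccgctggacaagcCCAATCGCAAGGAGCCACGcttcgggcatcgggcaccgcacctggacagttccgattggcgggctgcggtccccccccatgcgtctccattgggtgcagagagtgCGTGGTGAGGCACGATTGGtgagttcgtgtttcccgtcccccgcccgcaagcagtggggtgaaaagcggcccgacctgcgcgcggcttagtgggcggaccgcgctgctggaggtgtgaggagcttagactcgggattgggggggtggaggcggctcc
Pdia6: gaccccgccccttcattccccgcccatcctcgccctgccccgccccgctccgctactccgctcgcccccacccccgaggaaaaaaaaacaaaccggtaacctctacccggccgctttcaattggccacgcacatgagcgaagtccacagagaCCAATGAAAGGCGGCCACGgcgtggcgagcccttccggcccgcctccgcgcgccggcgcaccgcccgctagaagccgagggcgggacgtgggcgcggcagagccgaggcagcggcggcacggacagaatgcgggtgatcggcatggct
Derl3: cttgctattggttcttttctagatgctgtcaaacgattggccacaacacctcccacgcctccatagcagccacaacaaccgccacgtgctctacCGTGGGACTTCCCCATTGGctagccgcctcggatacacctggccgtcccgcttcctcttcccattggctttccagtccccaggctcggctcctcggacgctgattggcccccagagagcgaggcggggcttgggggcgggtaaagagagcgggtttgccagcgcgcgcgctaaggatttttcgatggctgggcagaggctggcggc
The match starts at base -65 from the start site in *Hspa5*, at -98 in *Pdia6* and, on the opposite strand, at -156 in *Derl3*, and *Hsp90b1* holds 2 matches, at -212 and, on the opposite strand, at -107. The window of *Pdia4*, the chaperone with a log2 ratio of 6.03 in WT, held none of the motifs. A match of letters is a description and shows no binding.

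The path of a nascent antibody through the cell was covered from entry to exit. Translocon and signal peptide genes were at least 2-fold higher in Ig-rich members for 13 of 16, 13 of 17 and 12 of 17 genes (medians 1.81, 1.83 and 1.65). Among them *Ssr4*, a translocon-associated subunit, stood at 2548, 1905 and 2403 against 131, 152 and 135 CPM. N-glycosylation genes were higher for 11 of 14, 8 of 14 and 9 of 13 (medians 1.42, 1.14 and 1.36), with 1 gene lower in Igκ-*BCL2*. ER-associated degradation genes were higher for 8 of 11, 6 of 11 and 8 of 11, among them *Herpud1* at 1566, 1275 and 1587 against 206, 276 and 286 CPM. ER to Golgi transport genes were higher for 9 of 14, 10 of 15 and 9 of 14. No gene of the translocon, degradation or transport lists was at least 2-fold lower in any library.

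Regulators outside the rule gave a mixed picture. Of 10 to 11 regulators measured, 3 were at least 2-fold higher in each library and 2, 3 and 2 lower. *Creb3l2*, an ER-membrane transcription factor of secretory cells, stood at 175, 118 and 245 CPM in Ig-rich members against 0.730, 0.403 and 0. *Ell2*, an elongation factor that favors secreted heavy chain RNA, stood at 245, 242 and 195 against 36.5, 47.9 and 54.9 CPM. *Bhlha15*, which encodes the secretory cell factor MIST1, gave just 1, 10 and 6 UMIs. Among surface and secreted genes 7 of 8, 6 of 9 and 8 of 11 were higher. *Ly6c2* stood at 129, 108 and 391 CPM against 0 in the Ig-poor members of every library, but all 11 WT UMIs and 53 of the 102 of Igκ-*BCL2* were in 1 cell each. *Slamf7* was less restricted, at 538, 377 and 494 against 109, 178 and 180 CPM.

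**Figure D2:**
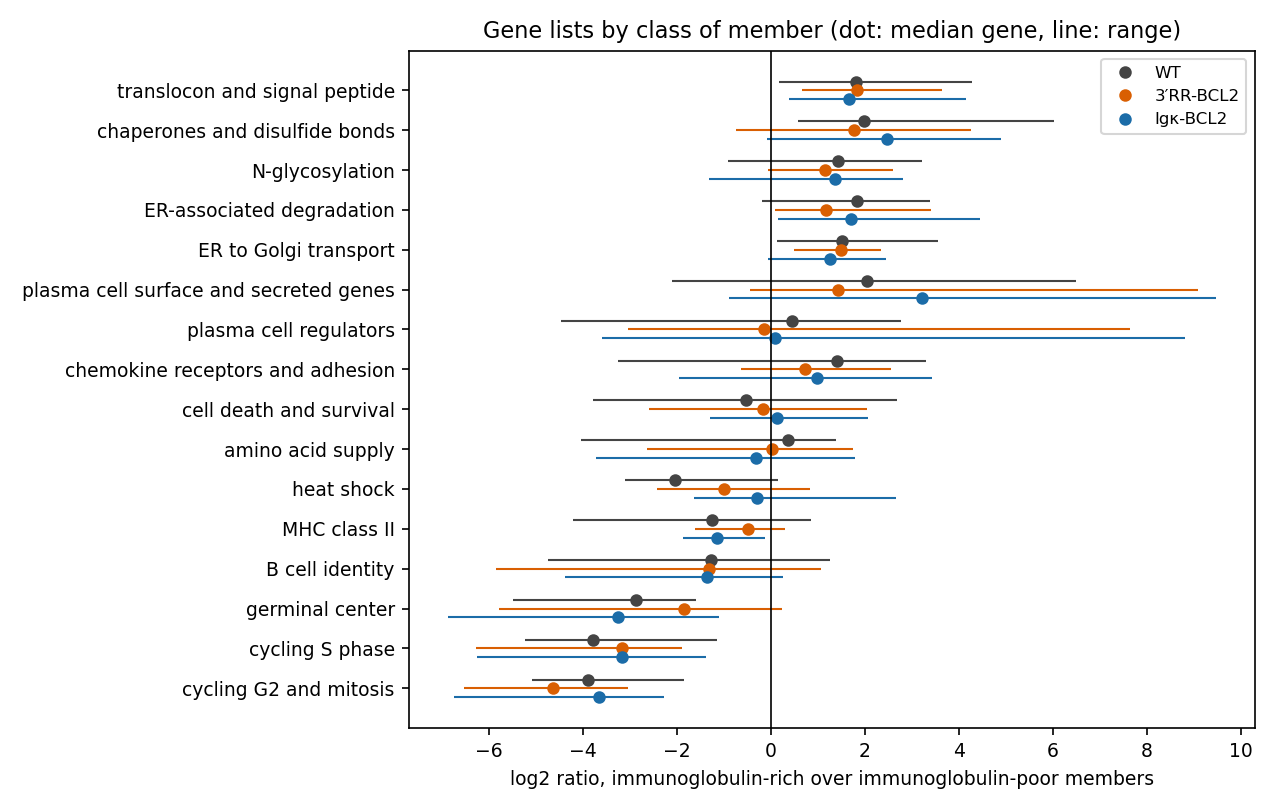
Median log2 ratio of Ig-rich over Ig-poor members for each gene list in the 3 libraries, with the dot at the median and the line over the range of its measured genes. ER chaperone medians lie between 1.76 and 2.46 and those of S phase genes between -3.80 and -3.18, against -0.44 to -0.29 over all genes.

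B cell, GC and division genes went the other way. B cell identity genes were at least 2-fold lower in Ig-rich members for 9, 8 and 11 of 15 genes. *Pax5* stood at 11.7, 32.3 and 61.3 CPM in Ig-rich members against 200, 246 and 327 in Ig-poor members. *Bach2* followed, at 0, 37.7 and 19.2 against 130, 323 and 438 CPM. *Cd79a*, a chain of the B cell receptor complex, did not: its level was 2771, 3175 and 2239 in Ig-rich and 1167, 1520 and 1869 in Ig-poor members. All 8 GC genes were at least 2-fold lower in WT and Igκ-*BCL2*, and 6 of 8 in 3′RR-*BCL2*. The exception there includes *Mef2b*, a GC transcription factor, at 291 CPM in the Ig-rich and 251 in the Ig-poor members of 3′RR-*BCL2*. MHC class II genes were lower for 6 of 10, 1 of 10 and 6 of 10, and *H2-Aa* still stood at 842, 2341 and 1913 CPM in the Ig-rich members.

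Division genes were found mostly in the Ig-poor members. The 12 S phase and 12 G2 and mitosis genes were all at least 2-fold lower in Ig-rich members in each library, with medians of -3.80, -3.18 and -3.18 and of -3.89, -4.64 and -3.66. *Mki67*, the Ki-67 gene, stood at 210, 86.1 and 46.0 CPM in Ig-rich and at 786, 731 and 567 in Ig-poor members. To compare cells at equal depth each was thinned to 2000 non-immunoglobulin UMIs, and a cell with a UMI of at least 3 of the 24 genes was counted as dividing. No member was too shallow for this. Ig-rich members counted 0 of 7 (interval up to 41.0%), 0 of 12 (up to 26.5%) and 1 of 22 (4.55%, 0.115 to 22.8). Ig-poor members counted 38 of 46 (82.6%, 68.6 to 92.2), 83 of 120 (69.2%, 60.1 to 77.3) and 16 of 48 (33.3%, 20.4 to 48.4), and the last interval, of Igκ-*BCL2*, overlapped neither of the others. GC-gene barcodes that were not members held the same order at lower shares, 53.9, 20.5 and 10.4%. Without thinning the Ig-poor shares were 100, 90.8 and 81.2% and the Ig-rich shares 42.9, 58.3 and 54.5%, at their greater depth.

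The Ig-poor members held more division RNA than other GC-gene barcodes. In this comparison 14.5% of the genes were at least 2-fold apart in WT (5.85% higher and 8.61% lower in Ig-poor members), 14% in 3′RR-*BCL2* (5.80 and 8.22%) and 11.7% in Igκ-*BCL2* (4.85 and 6.87%). S phase genes were at least 2-fold higher in Ig-poor members for 7, 11 and 11 of 12 and G2 and mitosis genes for 8, 12 and 12 of 12, none lower. In WT *Ccnb1*, the mitotic cyclin B1, had a log2 ratio of 2.39, and in 3′RR-*BCL2* *Rrm2*, a subunit of ribonucleotide reductase, had 2.73. In Igκ-*BCL2* *Plk1*, a mitotic kinase, had 5.25. None of the 8 GC genes was at least 2-fold apart in any library, and no translocon gene was. The markers of the rule, on which the cells were selected, had medians of just 0.34, 0.45 and 0.62. Genes of resting follicular B cells were lower for 6, 5 and 3 of 7, and *Gpr183*, the oxysterol receptor that guides activated B cells out of follicles, had log2 ratios of -2.13 (3′RR-*BCL2*) and -1.91 (Igκ-*BCL2*). *Jchain* itself was at 975, 1168 and 1375 CPM in Ig-poor members and 384, 435 and 422 in the other GC-gene barcodes, against 9.73, 100 and 63.0 over all barcodes that were not members.

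The share of members in each library depended on which kind was counted. All members made up 0.525% (0.393 to 0.686), 1.96% (1.64 to 2.32) and 1.10% (0.858 to 1.39) of the searched barcodes. Ig-poor members were most frequent in 3′RR-*BCL2*, at 1.78% (1.48 to 2.12) against 0.455% in WT (0.334 to 0.607) and 0.754% in Igκ-*BCL2* (0.556 to 0.998). Ig-rich members were most frequent in Igκ-*BCL2*, at 0.346% (0.217 to 0.523) against 0.0693% in WT (0.0279 to 0.143) and 0.178% in 3′RR-*BCL2* (0.0920 to 0.311). The log2 ratio of the Ig-rich share to WT was 2.32 (1.04 to 3.79) for Igκ-*BCL2*, and 1.36 for 3′RR-*BCL2* with an interval that crossed 0 (-0.10 to 2.94). Between both *BCL2* libraries it was 0.96 (-0.12 to 2.11), which the counts do not separate from 0. For the Ig-poor share it was -1.24 (-1.75 to -0.74) for Igκ-*BCL2* over 3′RR-*BCL2*. GC-gene barcodes outside the rule made up 1.04, 12.7 and 6.30%, again highest in 3′RR-*BCL2*. The negative selection of B cells can set the share of plasma cells kept, and its part in these shares was not tested. By the labels only WT was sorted, and such a difference cannot be told apart from genotype in any ratio to WT.

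**Figure D3:**
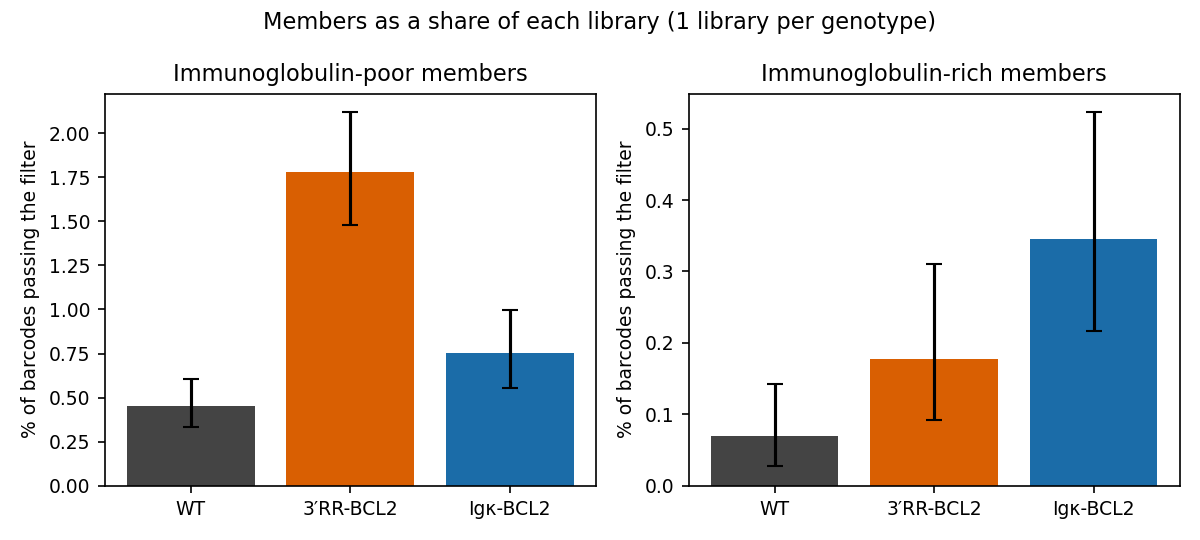
Ig-rich and Ig-poor members as a percentage of the searched barcodes of each library, with bars from 0 and exact binomial 95% intervals. Ig-poor members reach 1.78% in 3′RR-*BCL2* and Ig-rich members 0.346% in Igκ-*BCL2*.

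An isotype was called where a cell had at least 10 heavy chain constant UMIs with 80% or more from 1 isotype, which 40, 87 and 63 members met. IgM accounted for 18 of 40 called members (interval 29.3 to 61.5%), 40 of 87 (46.0%, 35.2 to 57.0) and 41 of 63 (65.1%, 52.0 to 76.7), with overlapping intervals. IgG1, the main switched isotype, accounted for 18, 36 and 16. Among Ig-poor members IgM was called in 14 of 33, 33 of 75 and 25 of 41 and IgG1 in 15, 36 and 14. GC-gene barcodes that were not members were called IgM in 75.5, 50.2 and 66.0% and IgG1 in 24.5, 43.2 and 27.7%. In both *BCL2* libraries the intervals of these shares overlapped those of Ig-poor members, so the mix does not set the Ig-poor members apart there. Over all barcodes that were not members IgM was called in 98.3, 85.6 and 91.5%. Among Ig-rich members IgM was called in 4 of 7, 7 of 12 and 16 of 22, the last being 72.7% (49.8 to 89.3). IgG1 was called in 3 of the 7 Ig-rich WT cells and 2 of the 22 Igκ-*BCL2* cells but in 0 of the 12 of 3′RR-*BCL2*, which allows a share of up to 26.5%. Those 12 held instead 2 IgG2c, 1 IgG2b and 2 IgA cells, the 2 IgA cells being the sole ones among all called members. *Ighd*, the IgD constant gene of naive B cells, was called in no member. Among called barcodes that were not members it was called in just 23 of 2377, 3 of 2071 and 0 of 2258, so its absence does not set the members apart.

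**Figure D4:**
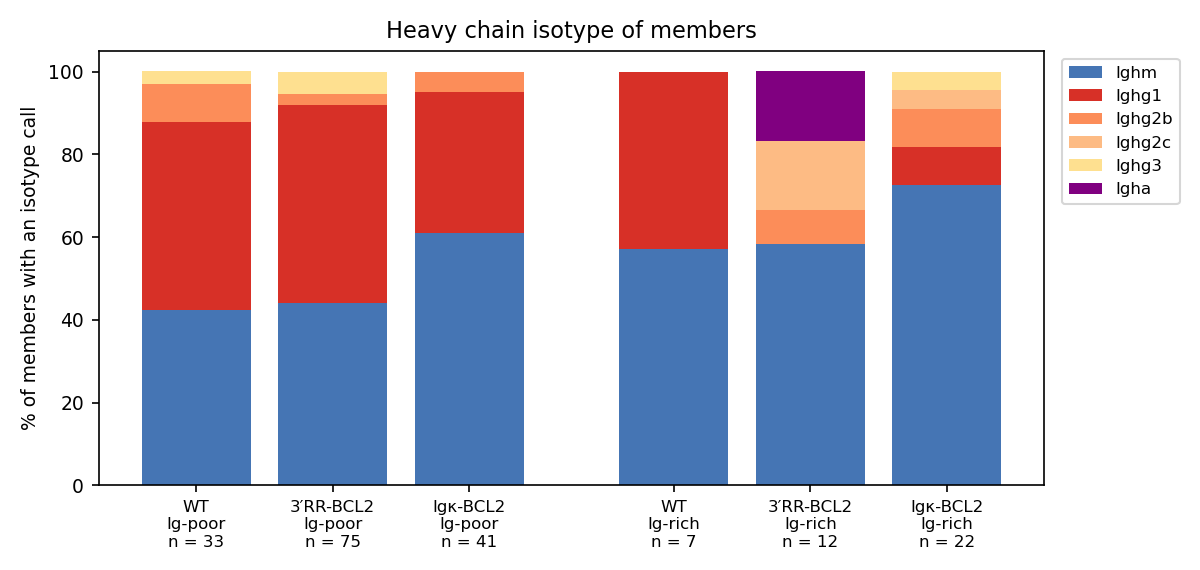
Percentage of called members by heavy chain isotype for Ig-poor (n = 33, 75 and 41) and Ig-rich members (n = 7, 12 and 22) of each library, as stacked bars from 0 to 100%. IgG1 fills a large part of the Ig-poor bars and is missing from the Ig-rich bar of 3′RR-*BCL2*.

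A few Ig-rich cells held most of the switched RNA. In Igκ-*BCL2* 69.6% of the heavy chain constant UMIs of Ig-rich members were from switched isotypes, although just 6 of 22 cells (27.3%) were switched. One of these cells held 11985 *Ighg2b* UMIs, 66.1% immunoglobulin among 49349 UMIs, and all 12 markers. In 3′RR-*BCL2*, *Ighg2b* made up 27.9% of the heavy chain UMIs of Ig-rich members, although it was called in 1 of 12 cells.

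The light chain was called in most members. A light chain was called where a cell had at least 10 UMIs of *Igkc* and the lambda constant genes with 80% or more from 1 kind. UMIs of the lambda genes *Iglc1* to *Iglc3* were summed. Lambda was called in 1 of 40 members (2.50%, 0.0633 to 13.2), 1 of 98 (1.02%, 0.0258 to 5.55) and 8 of 47 (17.0%, 7.65 to 30.8). Of the 8, 2 were among 20 called Ig-rich and 6 among 27 called Ig-poor cells (22.2%, 8.62 to 42.3). In barcodes that were not members lambda was called in 6.05, 5.70 and 40.5%. GC-gene barcodes that were not members held it at 3.23, 3.23 and 26.3%, the last with an interval (20.7 to 32.5) that overlapped that of the members of Igκ-*BCL2*. A single kind of light chain was hard to call in Ig-poor members, whose median lambda share of light chain UMIs was 15.3, 15.4 and 23.6% against 2.33, 2.79 and 3.10% in Ig-rich members. Light chain RNA from outside the cell was not tested as a part of this.

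The V genes of the Ig-rich cells were diverse. A heavy V gene was called in 7, 6 and 13 cells, with 7, 5 and 13 different genes. Within a library just *Ighv1-55* recurred, in 2 cells of 3′RR-*BCL2*, while it and some other heavy V genes were shared between libraries. A light V gene was called in 7, 8 and 17 cells with 7, 8 and 13 different genes, *Igkv1-117* being the most frequent with 3 cells of Igκ-*BCL2*. All 7, 4 and 12 cells with both called had different pairs. V genes resemble each other and these libraries read the 3′ end, so each V call is uncertain.

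Summed over the Ig-rich members, both *BCL2* libraries held more heat shock and *Apoe* RNA than WT and less *Prg2* and *Slpi*, and Igκ-*BCL2* held more mouse *Bcl2*. The *Apoe* excess lay mostly in cells with under 20% immunoglobulin, and the cell median of *Apoe* in Igκ-*BCL2* was below that of WT. Of the genes tested 14.5% were at least 2-fold apart between 3′RR-*BCL2* and WT (10.6% higher, 3.91% lower, of 1254), 14.6% between Igκ-*BCL2* and WT (11.1 and 3.52% of 1791) and 11.9% between Igκ-*BCL2* and 3′RR-*BCL2* (7.58 and 4.29% of 1886). Both comparisons with WT share its 7 cells. Mouse *Bcl2* (chr1:106538178-106714274, minus strand, mm10) gave 10, 21 and 233 UMIs, or 117, 113 and 893 CPM. It was found in 21 of 22 Igκ-*BCL2* cells (median 1013 CPM, 0 to 1833), 11 of 12 of 3′RR-*BCL2* (median 96.2, 0 to 354) and 3 of 7 of WT (median 0, 0 to 706). The log2 ratio was 2.87 (2.03 to 4.01) for Igκ-*BCL2* over WT and 2.95 (2.34 to 3.70) over 3′RR-*BCL2*. The summed levels of 3′RR-*BCL2* and WT were nearly the same, but 6 of the 10 WT UMIs were in 1 cell, so the WT level rests largely on that cell. The plasma cell survival gene *Mcl1* stood at 1181, 780 and 805 CPM, and *Bcl2l11*, which encodes the death activator BIM, at 175, 334 and 379.

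Few secretory genes were at least 2-fold apart between the Ig-rich cells of the 3 libraries. Among chaperones it was 0 of 16 for 3′RR-*BCL2* over WT, 0 of 17 for Igκ-*BCL2* over WT and 1 of 17 for Igκ-*BCL2* over 3′RR-*BCL2*, that 1 being *Hsp90b1* (log2 1.05, 0.91 to 1.19). Their medians were -0.27, 0.14 and 0.27 against 0.12, 0.06 and 0.04 over all genes. Translocon genes counted 1 of 16, 0 of 17 and 0 of 17, and N-glycosylation genes 2 of 13, 0 of 12 and 1 of 13, all of these lower in the first-named library. ER-associated degradation genes counted 1 lower of 9, 1 higher of 10 and 1 higher of 10, and ER to Golgi transport genes 1 lower of 10, 1 lower of 10 and 0 of 11. Of the 12 markers of the rule, 2 were higher and 1 lower in Igκ-*BCL2* and 1 was lower in 3′RR-*BCL2*, each against WT, and 1 was higher in Igκ-*BCL2* than in 3′RR-*BCL2*. No replicate exists to say how far these medians would move between animals.

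Heat shock genes were higher for 7 of 10 genes in Igκ-*BCL2* over WT (median 1.73) and for 4 of 7 in 3′RR-*BCL2* over WT (median 1.17). *Hspa1b* stood at 0, 145 and 1184 CPM and *Hspa1a* at 0, 151 and 820. These inducible HSP70 genes are near-identical copies, so reads could be divided between them. In Igκ-*BCL2* *Hspa1b* was found in 14 of 22 cells (median 177 CPM, 0 to 10532), and in WT in 0 of 7, which allows up to 43.1 CPM. The same order was seen outside the members, with *Hspa1b* at 18.3, 716 and 2201 CPM in barcodes that were not members. *Dnajb1*, an HSP40 co-chaperone, stood at 46.8, 172 and 533 CPM. The part of tissue handling in these values was not tested.

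*Apoe*, the lipid carrier apolipoprotein E, stood at 1379, 22209 and 13037 CPM in Ig-rich members. A single cell held 1720 of the 4127 UMIs of 3′RR-*BCL2*, and cell levels had medians of 398, 4646 and 72.0 CPM with ranges of 0 to 4270, 0 to 99714 and 0 to 89828. The groups thus overlapped fully at their low ends. *Prg2*, known as a granule protein of eosinophils, went the opposite way at 5050, 818 and 42.2 CPM, in 6 of 7, 5 of 12 and 5 of 22 cells. Its log2 ratio was -6.84 (-7.92 to -6.05) for Igκ-*BCL2* over WT, and single cells carried the higher levels, with 251 and 139 of the 432 WT UMIs in 2 cells and 123 of the 152 of 3′RR-*BCL2* in 1. *Slpi*, a secreted protease inhibitor, stood at 11223, 5629 and 1913 CPM, with 712 of 960 WT UMIs in 1 cell. *Dusp2*, a MAP kinase phosphatase, was higher in 3′RR-*BCL2* than WT at 350 against 11.7 CPM (log2 4.33, 2.37 to 10.23), and *Zfp36l2*, an RNA decay factor, was higher in Igκ-*BCL2* at 1357 against 93.5 (3.77, 2.86 to 5.08). *Vpreb3* was lower in 3′RR-*BCL2*, at 161 against 678 CPM.

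**Figure D5:**
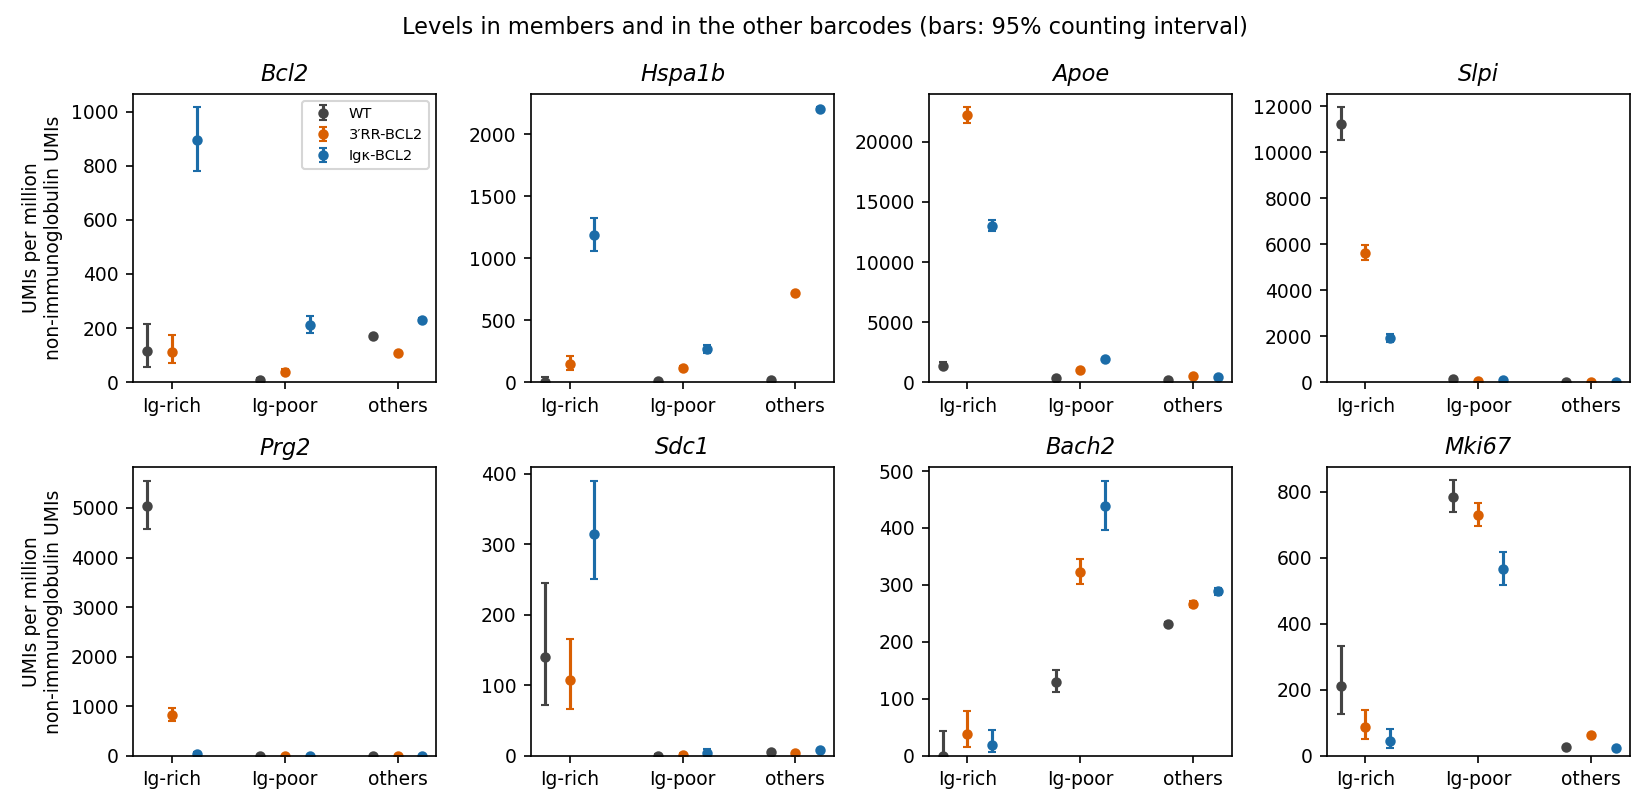
Levels of 8 genes in CPM, with exact Poisson 95% intervals, in Ig-rich members, Ig-poor members and the barcodes that were not members of each library. *Sdc1* and *Slpi* are highest in Ig-rich and *Mki67* in Ig-poor cells in every library, *Prg2* of the Ig-rich cells ranges from 42.2 CPM in Igκ-*BCL2* to 5050 in WT, and *Bcl2* of Igκ-*BCL2* reaches 893 CPM in the Ig-rich cells.

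A closer look at the immunoglobulin share divided the Ig-rich cells again. This second division, at 20%, was also chosen after the values were seen and left 6, 6 and 14 cells above it and 1, 6 and 8 below. *Apoe* stood at 577 and 1951 CPM above 20% in 3′RR-*BCL2* and Igκ-*BCL2* and at 38450 and 36589 below. In WT it stood at 1532 CPM above 20%, which is higher than in 3′RR-*BCL2*. *H2-Aa* followed, at 402 and 970 against 3797 and 3916 CPM, with 922 in WT above 20%. *Klf2*, a regulator of lymphocyte exit, ran against both at 1255 and 1545 against 226 and 83.8, as did *Ssr4* at 3238 and 3129 against 904 and 862. For *Klf2* in 3′RR-*BCL2*, 82 of the 100 UMIs above 20% were in 1 cell. The median *Klf2* count per cell there was not higher above 20% than below, so that contrast rests largely on that cell. *Prdm1* was not lower below 20%, at 207 and 383 against 62.7 and 141 CPM, on 22 and 32 against 5 and 25 UMIs. Single cells held 10 of the 22 and 12 of the 25. Other markers of the rule that were compared were higher above 20% than below. *Sdc1* stood at 188 and 372 above against 47.1 and 192 below, and *Xbp1* at 1769 and 1353 against 980 and 1126. *Derl3* stood at 464 and 660 against 188 and 323, and *Fkbp11* at 402 and 316 against 18.8 and 47.9. *Bcl2* in Igκ-*BCL2* was alike on both sides, at 930 and 814 CPM. The single WT cell below 20% held no *Apoe*.

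Among the Ig-poor members 4.49% of 8013 genes were at least 2-fold apart between 3′RR-*BCL2* and WT (3.24% higher, 1.25% lower). For Igκ-*BCL2* the share was 9.81% of 6707 genes against WT (5.84% higher, 3.97% lower) and 3.65% of 7990 against 3′RR-*BCL2* (1.51% higher, 2.14% lower). Mouse *Bcl2* stood at 9.49, 39.1 and 212 CPM, found in 9 of 46, 59 of 120 and 45 of 48 cells. Its log2 ratio to WT was 1.99 (1.20 to 3.0) for 3′RR-*BCL2*, and for Igκ-*BCL2* it was 4.43 (3.67 to 5.42). Among barcodes that were not members it stood at 169, 106 and 230 CPM, so 3′RR-*BCL2* lay below WT there and Igκ-*BCL2* above it by less. *Hspa1b* stood at 11.7, 118 and 267 CPM in the Ig-poor members, 3.29 (2.61 to 4.16) and 4.47 (3.78 to 5.34) above WT on the log2 scale, and below its level in the other barcodes of both *BCL2* libraries. *Apoe* stood at 342, 1033 and 1937 CPM, with log2 ratios of 1.59 (1.45 to 1.74) and 2.50 (2.35 to 2.65). *Bach2*, a repressor of plasma cell fate, was also higher, with log2 ratios of 1.31 (1.08 to 1.55) and 1.75 (1.49 to 2.02).

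Single genes were also lower in the Ig-poor members of a *BCL2* library. In 3′RR-*BCL2* *Srm*, spermidine synthase, stood at 39.5 CPM against 112 in WT. In Igκ-*BCL2* *Ung*, the uracil DNA glycosylase of base excision repair, stood at 14.3 against 62.1 (log2 -2.07). *Ccne2*, a cyclin of S phase entry, was at 7.69 in Igκ-*BCL2* against 45.5 in 3′RR-*BCL2* (log2 -2.47). S phase genes had a median log2 ratio of -0.76 for Igκ-*BCL2* over WT, with 2 of 12 at least 2-fold lower, and none of the 12 was 2-fold apart between 3′RR-*BCL2* and WT. One barcode with 148480 UMIs held 16.2% of the non-immunoglobulin UMIs of the Ig-poor members in Igκ-*BCL2*. Without the deepest barcode of each library 548 rather than 266 genes were at least 2-fold lower than in WT, and 297 rather than 171 lower than in 3′RR-*BCL2*.

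Over all members, where Ig-rich and Ig-poor cells mix in different proportions (13.2, 9.09 and 31.4% Ig-rich), 4.17% of 8209 genes were at least 2-fold apart between 3′RR-*BCL2* and WT (241 or 2.94% higher, 101 or 1.23% lower). The share was 11.3% between Igκ-*BCL2* and WT (477 or 6.70% higher, 324 or 4.55% lower, of 7119) and 4.97% between Igκ-*BCL2* and 3′RR-*BCL2* (224 or 2.73% higher, 184 or 2.24% lower, of 8217). Without the deepest barcode of each library 580 genes were lower in Igκ-*BCL2* than in WT and 313 lower than in 3′RR-*BCL2*. With all UMIs as the total, all log2 ratios of Igκ-*BCL2* moved by -0.19, and 588 genes were then lower and 304 higher than in WT.

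Markers of other cell types were at 0 or at low summed levels in members, though some were above the other barcodes. All 8 neutrophil genes were at 0. Macrophage genes summed to 11.7, 7.50 and 12.8 CPM against 59.3, 19.7 and 6.72 in other barcodes, and no member held 2 UMIs of C1q genes. T cell genes summed to 63.9, 57.7 and 66.6 CPM, carried by *Lck*, against 26.5, 29.6 and 25.1 in other barcodes, and 0, 2 and 2 members held at least 2 UMIs of CD3 genes. *Ctla4*, a T cell checkpoint receptor that was also among the genes higher in Ig-rich cells, stood at 421, 371 and 245 CPM there and *Cd3g* at 0, 96.9 and 23.0. Red cell genes summed to 20.6, 40.9 and 40.1 CPM against 15.8, 29.4 and 31.9. Plasmacytoid dendritic cell genes summed to 519, 562 and 709 CPM, carried by *Ly6d*, *Tcf4* and *Bst2*, against 1980, 1811 and 1514 in other barcodes, with *Siglech* and *Klk1* at 0. Barcodes that hold more than 1 cell were not removed, and the part of doublets in the members was not tested.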

How the data were processed

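Splenic B cells of 3 mouse libraries, 1 per genotype, were captured with a 10x 3′ kit. According to the submitters' processing notes, Cell Ranger 6.1.1 was used, and the builds hg38 and mm10 are named; the files hold mouse genes. The authors deposited raw UMI counts per gene and barcode, which were used as deposited; no cell annotation was used here. The members and all gene lists were chosen with earlier results of these data known. Counts of members were summed per library, 392 immunoglobulin genes were left out of totals, and levels are in CPM, UMIs per 1000000 of the rest. Log2 ratios have 0.5 added to each sum, with exact 95% Poisson intervals (shares: Clopper-Pearson). Genes with 20 UMIs in either sum were compared. With 1 library per genotype no test was run. Named genes were those of the lists, for each comparison the 10 genes per direction, among those with 50 or more UMIs, with the interval farthest from a ratio of 1, and a few genes of the rule; immunoglobulin, ribosomal, mitochondrial and sex-linked genes were left out of that ranking. No doublet caller was run and no doublets were removed. The intervals were tested on simulated Poisson counts only. Such counts hold no spread between cells, so that test cannot show how the intervals perform on these cells. Scripts ran in Python 3.11.15 (pandas 2.3.3, scipy 1.17.1, numpy 2.4.6; figures by matplotlib 3.10.9).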

Additional observations from a re-analysis of the deposited data

Results flagged for a closer look

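Barcodes that failed the limits on genes or mitochondrial UMIs were outside every comparison, and a few of them were rich in antibody RNA. In 3′RR-*BCL2* 1 such barcode gave 20% or more of its UMIs to immunoglobulin genes (917 UMIs, 441 genes, 29.1% immunoglobulin, no *Jchain* and 4 of the 12 markers). In Igκ-*BCL2* there were 3, with 156, 345 and 575 genes, 1437, 1234 and 4806 UMIs, 83.0, 35.3 and 70.0% immunoglobulin and 56, 149 and 262 UMIs of *Jchain*. In WT there were 0. All had fewer than 800 genes, and 1 of the 4 would have met both limits on *Jchain* and markers.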

How the results depend on the processing

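No paired analysis was possible because each genotype had 1 library and the labels share just the number 1. Of 246 values recomputed under other settings 161 stayed close to the reported value, 83 moved and 2 turned. The member share fell in WT, 3′RR-*BCL2* and Igκ-*BCL2* to 0.337, 0.890 and 0.581% from 20 *Jchain* UMIs, to 0.171, 1.17 and 0.735% under the study's cell limits and to 0.0693, 0.0445 and 0.314% without GC-gene members. It was 0.297 and 1.30% in WT and 3′RR-*BCL2* from 1000 *Jchain* CPM, 1.17 and 0.738% in 3′RR-*BCL2* and Igκ-*BCL2* from 6 markers, and 2.55% in 3′RR-*BCL2* from 4. Without GC-gene members both turned: the log2 share ratio was -0.64 (-3.22 to 1.49) for 3′RR-*BCL2* over WT, on 3 cells, and 2.82 (1.07 to 5.21) for Igκ-*BCL2* over 3′RR-*BCL2*, and 2.18 for Igκ-*BCL2* over WT. From 20 *Jchain* UMIs 3′RR-*BCL2* over WT was 1.40, and under the study's limits 2.78, with 2.11 for Igκ-*BCL2*. The Ig-rich share in 3′RR-*BCL2* was 0.460% from 2% immunoglobulin, 0.0890% from 20% and 0.0760% under the study's limits, which gave 0.176% in Igκ-*BCL2*. From 2% the WT and Igκ-*BCL2* shares stayed within their 5% intervals, 0.0279 to 0.143% and 0.217 to 0.523%. The 3′RR-*BCL2* share from 2% thus lay above the WT interval and inside that of Igκ-*BCL2*.

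The dividing share of members in 3′RR-*BCL2* was 50.6% both from 1000 *Jchain* CPM and under the study's limits, 50% thinned to 1000 UMIs and 47.0% from 5 genes. In Igκ-*BCL2* it was 9.26, 13.0 and, thinned to 4000, 42.6%, and in WT 56.7% from 1000 CPM and 84.6% thinned to 4000. Without GC-gene members it was 0 in all 3. IgM in 3′RR-*BCL2* was 66.7% without GC-gene members and 64.0% from 50 constant UMIs. Lambda was 0 in 3′RR-*BCL2* from 6 markers or without GC-gene members, which gave 5.56% in Igκ-*BCL2* and 14.3% in WT, and 6.90% in Igκ-*BCL2* from 20 *Jchain* UMIs.

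Counts of genes 2-fold apart moved most. For 3′RR-*BCL2* over WT 365 were higher and 177 lower under the study's limits, 21 higher without GC-gene members, 179 lower with equal weight per cell, 85 and 36 from 50 UMIs, 133 and 49 in Ig-rich cells, and 36 lower there with all UMIs. For Igκ-*BCL2* over 3′RR-*BCL2* the pairs were 371 and 748 from 1000 *Jchain* CPM, 358 and 70 without GC-gene members, 137 and 310 with all UMIs, 360 and 430 with equal weight, 87 and 69 from 50 UMIs and 143 and 81 in Ig-rich cells. There 121 were higher in Ig-poor cells and 94 in Ig-rich cells with all UMIs, and 342 were lower from 20 *Jchain* UMIs, 288 under the study's limits, 313 without the deepest member and 297 in Ig-poor cells without it. For Igκ-*BCL2* over WT the pairs were 211 and 65 without GC-gene members, 304 and 588 with all UMIs, 216 and 175 from 50 UMIs, 198 and 63 in Ig-rich cells and 161 and 88 there with all UMIs. There 628 were lower from 1000 *Jchain* CPM, 181 under the study's limits, 632 with equal weight, 580 without the deepest member and 548 in Ig-poor cells without it. The cause of these moves was not tested. With 7 Ig-rich WT cells, small differences from WT were not detectable at this depth.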

Other observations

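Chemokine receptor and adhesion genes also differed between Ig-rich and Ig-poor members. Of those measured, 5 of 10, 6 of 13 and 5 of 11 were at least 2-fold higher in Ig-rich than in Ig-poor members, and 1, 0 and 1 lower (WT, 3′RR-*BCL2* and Igκ-*BCL2*, as before). *Itga4*, the alpha chain of the integrin VLA-4, stood at 397, 140 and 333 CPM in Ig-rich and 40.9, 39.9 and 30.8 in Ig-poor members. Barcodes that were not members held it at 308, 249 and 263 CPM, so the Ig-poor cells were the low ones. *Cd28*, a costimulatory receptor also known on plasma cells, gave 8, 5 and 8 UMIs in Ig-rich members and none in the 214 Ig-poor members. *Jun*, an AP-1 subunit, stood at 4524, 3390 and 7667 CPM in Ig-rich members, with cells from 0 to 17158, 0 to 16912 and 0 to 30165, against 102, 200 and 317 CPM in Ig-poor members. In WT 325 of its 387 Ig-rich UMIs were in 1 cell, so its level there rests on that cell.

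Amino acid supply genes were higher in Ig-poor members than in other GC-gene barcodes for 3, 6 and 3 of 11, and none was lower. *Psat1*, an enzyme of serine synthesis, stood at 95.7, 84.2 and 75.8 CPM in Ig-poor members and at 0, 10.8 and 3.83 in Ig-rich members, the last on 0, 2 and 1 UMIs. *Slc3a2*, the heavy chain shared by several amino acid transporters, ran the other way at 109, 118 and 137 CPM in Ig-poor and 281, 393 and 471 in Ig-rich members.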
